A study of Rattus norvegicus with 25 samples.

Results

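Rat sperm small RNA libraries were examined for miR-205, miR-203 and miR-31, miRNAs best known from stratified epithelia such as the epidermis and the lining of the mouth. Members were taken by name, as every row of the miRNA count table called rno-miR-205 or beginning with rno-miR-203a-, rno-miR-203b- or rno-miR-31a-. This gave 6 of the 562 mature miRNAs listed, namely rno-miR-205, rno-miR-203a-3p, rno-miR-203a-5p, rno-miR-203b-3p, rno-miR-31a-5p and rno-miR-31a-3p, written below without the prefix for rat. Of the 6, 5 passed the filter on low counts that 317 of the 562 passed, and miR-203a-5p did not.

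A miRNA is a short RNA that guides a silencing complex to messenger RNAs, mostly by pairing of its seed, bases 2 to 8 from the 5′ end. In stratified epithelium, miR-205 is abundant in the dividing basal layer, miR-203 appears as keratinocytes leave that layer and represses the basal transcription factor p63, and miR-31 is known for its increase in proliferating and wounded skin. Mature sperm transcribe little, and part of their small RNA is known to be acquired during passage through the epididymis, whose duct is lined by an epithelium with its own basal cells.

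The libraries came from F0 Sprague-Dawley males that had self-administered morphine or saline intravenously, with no genetic modification in any group. Sperm were collected from the cauda epididymis by double swim-up. The nonabstinent groups, F0_SAL (saline, n = 7) and F0_MOR (morphine, n = 7), were sampled at the end of self-administration. The abstinent groups, F0_ABS-SAL (n = 5) and F0_ABS-MOR (n = 6), were sampled 90 days later. Abstinent males were therefore older at collection, so that age, elapsed time and any handling that went with the timepoint cannot be told apart. The sources used here give no age at collection. Library totals ranged from 1032386 to 3203211 miRNA counts. The 9 sperm and germ line miRNAs listed, among them the miR-34b/c and miR-449a family, were present in every group and together held between 245055 and 590425 CPM (counts-per-million of all miRNA counts) in single libraries. Between 88.1% and 90.2% of this sum in a group was miR-34c-5p.

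The mature sequences are given first because the members differ by seed, and because all but miR-205 lie opposite another hairpin. Sequences and coordinates are those of RefSeq on GRCr8, which is not the build the counts were aligned to, and capitals mark the seed. All 6 members were found in that table, and no other rat mature miRNA of the table had any of their seeds.
miR-205: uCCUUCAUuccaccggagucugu
miR-203a-3p: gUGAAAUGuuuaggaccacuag
miR-203a-5p: aGUGGUUCuuaacaguucaac
miR-203b-3p: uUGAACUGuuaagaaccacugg
miR-31a-5p: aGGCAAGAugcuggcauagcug
miR-31a-3p: uGCUAUGCcaacauauugccauc

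The miR-205 sequence lies within Mir205 at chr13:107564588-107564610 on the minus strand. The miR-203 hairpins Mir203 and Mir3545, whose synonym is Mir203b, occupy chr6:137020705-137020801 and chr6:137020691-137020805 on opposite strands, so that each is nearly the antisense of the other. Accordingly, miR-203a-5p and miR-203b-3p overlap on the genome by 20 bases, all 20 complementary. Mature miR-203a-3p and miR-203b-3p, in contrast, carry the same base at 17 of 22 positions without gaps, and their seeds UGAAAUG and UGAACUG differ. The miR-31a arms come from Mir31 on the minus strand of chromosome 5, with miR-31a-5p at chr5:108714906-108714927, where 19 of 19 overlapping bases are complementary to miR-31b on the plus strand. Counts were of reads in the sense direction, which keeps opposite strands apart.

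Levels differed widely among the members, whose mature lengths are 21 to 23 bases. By mean CPM, miR-203a-3p stood at 686 and ranked 75 of 562, followed by miR-205 at 133 (rank 136), miR-203b-3p at 36.1 (rank 197), miR-31a-5p at 9.68 (rank 263) and miR-31a-3p at 4.71 (rank 303). The first 4 of these were above 0 in all 25 libraries, and miR-31a-3p was above 0 in 21. The count of miR-203a-5p was 3 in 1 F0_MOR library and 0 in the other 24, and a count of 0 allows up to 3 counts in a library. The strand opposite the abundant miR-203a-3p on its own hairpin was thus at the limit of detection.

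**Figure D1:**
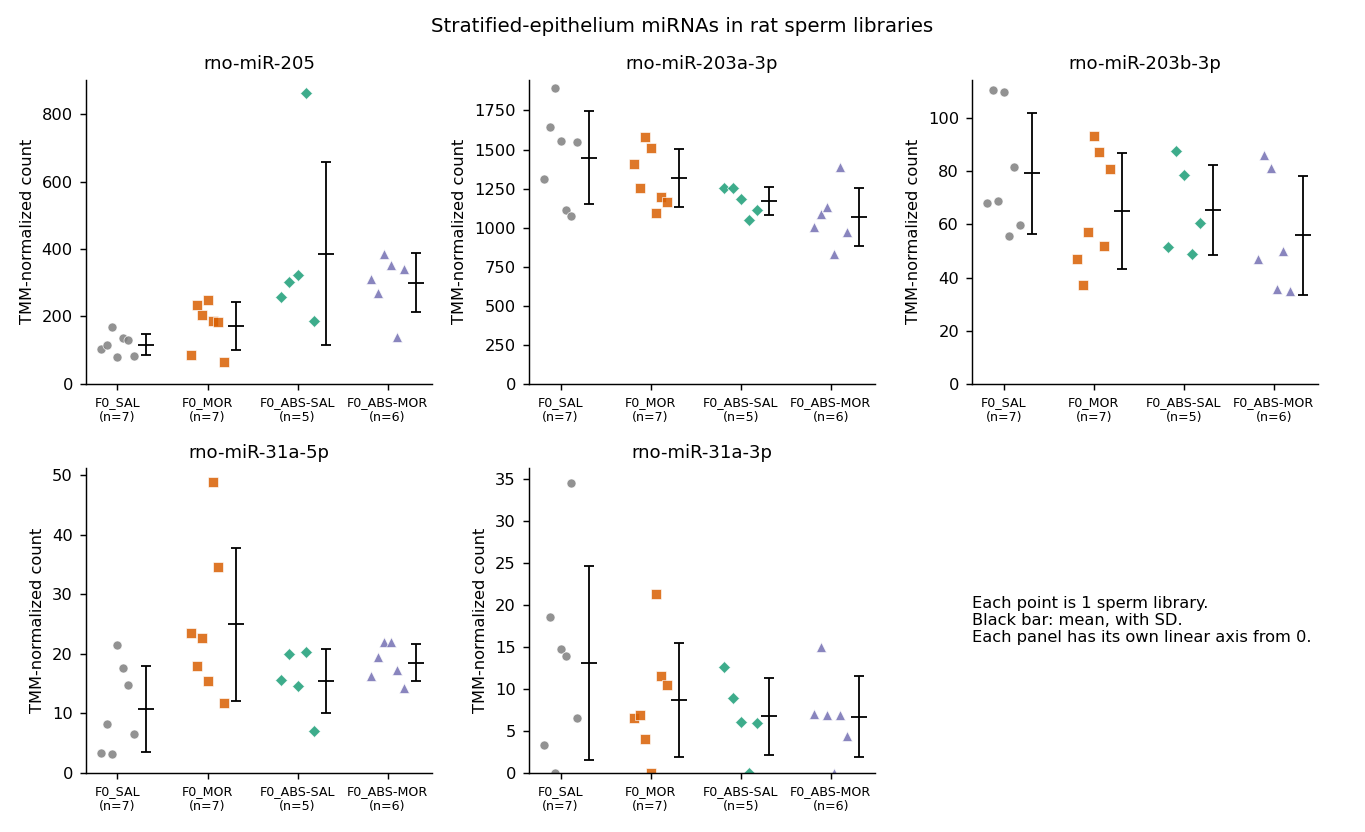
Normalized counts of the 5 members past the filter, 1 panel each with its own linear axis from 0; each point is 1 library and the black bar gives the mean and SD. For miR-205 the 5 F0_ABS-SAL libraries lie above all 7 F0_SAL libraries (186 to 863 against 80.5 to 169), whereas the groups overlap for the other members.

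Normalized counts below are raw counts scaled by TMM factors to a common library size. Group differences are log2 fold changes from edgeR's quasi-likelihood test with a standard error (SE), with p-values adjusted by Benjamini-Hochberg over all 317 miRNAs tested. A miRNA was called when its adjusted p was under 0.1 and its absolute log2 fold change above 0.58. The labels number the libraries of a group as biological replicates, and the p-values measure the spread between these libraries. Nothing further is stated on how independently they were prepared.

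miR-205, the basal-layer miRNA, was called higher in abstinent than in nonabstinent males after either treatment, though the call in the morphine groups depended on single libraries. In F0_SAL its normalized counts were 80.5, 83.2, 103, 114, 130, 138 and 169 in the 7 libraries, with a mean of 117 ± 31.5 (SD, n = 7). In F0_ABS-SAL they were 186, 258, 302, 323 and 863, with a mean of 386 ± 272 (SD, n = 5). All 5 abstinent saline libraries lay above all 7 nonabstinent saline libraries, and the library labelled R, at 863, stood well above the other 4. The log2 fold change was 1.73 (SE 0.33), a 3.32-fold difference with an adjusted p of 4.87e-04 (edgeR). In bulk libraries, more cells of a type that carries a miRNA and more of it per cell cannot be told apart. Of the 5 members tested it was the 1 called in this comparison, beside 33.1% of all miRNAs tested and 22.4% called higher in F0_ABS-SAL. Complete separation with F0_ABS-SAL higher was seen for 4.73% of all miRNAs tested. An exact two-sided permutation test of mean log2 CPM gave a difference of 1.54 with p = 0.00126, the smallest this design allows, and 0.0235 after adjustment over all 317.

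In the morphine groups, the normalized counts of miR-205 ranged from 63.8 to 248 in F0_MOR (median 187, mean 173 ± 71.0, SD, n = 7) and from 140 to 384 in F0_ABS-MOR (median 327, mean 300.3 ± 87.3, SD, n = 6). In F0_ABS-MOR, 5 of the 6 libraries exceeded every F0_MOR library, and the sixth, labelled S, lay at 140. The log2 fold change was 0.80 (SE 0.31), or 1.74-fold, with an adjusted p of 0.0720 (edgeR), and again miR-205 was the 1 member called, beside 21.1% of all miRNAs tested. By the exact permutation test the difference of mean log2 CPM was 0.86 with p = 0.0355, or 0.131 after adjustment over all 317, and the edgeR call was lost when any 1 of 4 libraries was left out, with adjusted p-values of 0.137 without F0_MOR library A, 0.104 without F0_MOR library U, 0.109 without F0_ABS-MOR library D and 0.132 without F0_ABS-MOR library J. It was also lost at an adjusted p threshold of 0.05. With 1 library left out, the unadjusted exact permutation p ranged from 0.00758 to 0.0770. It was no longer under 0.05 in 7 of 13 such runs.

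Morphine did not give a called difference in miR-205 at either timepoint. Between F0_MOR and F0_SAL, 5 of 7 morphine libraries lay above every saline library and the other 2, at 63.8 and 86.2, lay among or below the lowest of them. The log2 fold change was 0.57 (SE 0.31) with an adjusted p of 0.637 (edgeR), and the exact permutation p was 0.171. Between F0_ABS-MOR and F0_ABS-SAL it was -0.36 (SE 0.34) with an adjusted p of 1.00 (edgeR), and it was 0.14 without library R. Of all 317 miRNAs, 0 were called in either treatment comparison (0%), with 23 (7.26%) and 4 (1.26%) at an unadjusted p under 0.05 in edgeR. The difference between these 2 treatment effects was 0.93 (SE 0.46), with an unadjusted p of 0.0504 and an adjusted p of 0.953 (edgeR interaction). It was 0.36 without library R and 0.41 by limma-voom with sample weights. Ordered by mean, miR-205 was lowest in F0_SAL, then F0_MOR, F0_ABS-MOR and F0_ABS-SAL, and of the neighbours in this order only F0_MOR and F0_ABS-MOR differed by the call rule.

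**Figure D2:**
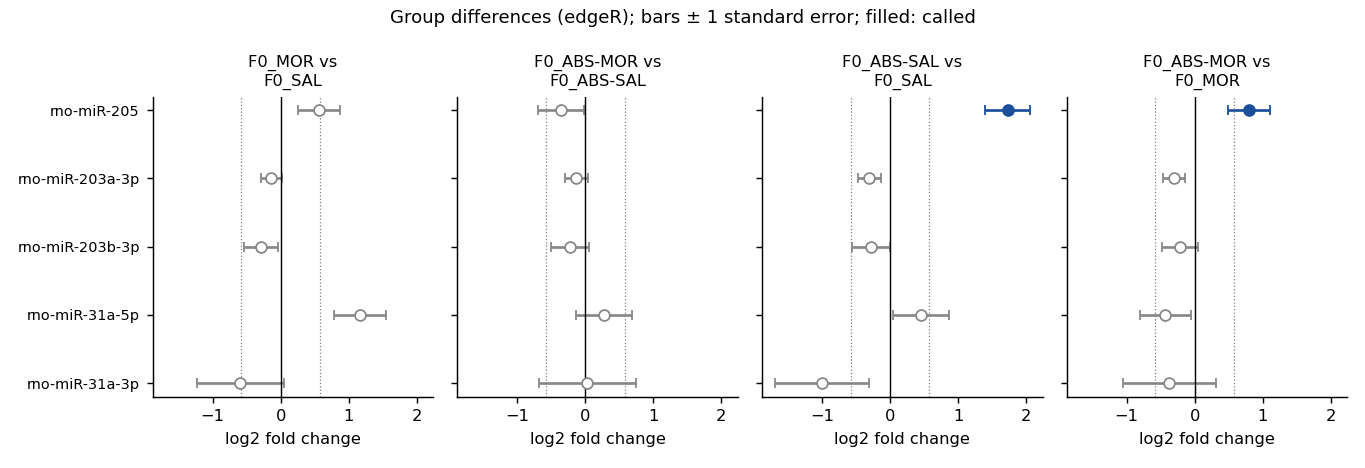
Log2 fold changes of the 5 members in the 4 comparisons between groups, with bars of 1 SE; dotted lines mark the fold change threshold of 0.58 in either direction and filled points are called. Only miR-205 is filled, at 1.73 for F0_ABS-SAL against F0_SAL and at 0.80 for F0_ABS-MOR against F0_MOR.

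miR-203a-3p, the differentiation-associated arm and the most abundant member, had no called difference between groups. Its normalized counts ranged from 1073 to 1894 in F0_SAL (mean 1448 ± 297, SD, n = 7), from 1096 to 1580 in F0_MOR (1315 ± 186, n = 7), from 1047 to 1253 in F0_ABS-SAL (1170 ± 89.3, n = 5) and from 832 to 1386 in F0_ABS-MOR (1068 ± 187, n = 6). The groups overlapped in every comparison. Log2 fold changes were -0.31 (SE 0.17, adjusted p 0.157) for F0_ABS-SAL against F0_SAL and -0.30 (SE 0.16, adjusted p 0.188) for F0_ABS-MOR against F0_MOR in edgeR. With scaling to the total count alone, the first became 0.065, so that no direction can be given for it. That scaling moved the median log2 fold change of all miRNAs tested in this comparison to 0.39, from 0.00 with TMM. The order of the means, from F0_SAL down to F0_ABS-MOR, held no pair of neighbours that differed by the call rule.

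miR-203b-3p, from the opposite strand, likewise had no called difference. Its normalized counts ranged from 55.5 to 111 in F0_SAL (mean 79.2 ± 22.8, SD, n = 7), from 37.3 to 93.3 in F0_MOR (64.9 ± 21.9, n = 7), from 48.8 to 87.5 in F0_ABS-SAL (65.4 ± 17.0, n = 5) and from 34.8 to 86.3 in F0_ABS-MOR (55.8 ± 22.5, n = 6). All 4 groups overlapped. Log2 fold changes lay between -0.29 and -0.21 in the 4 comparisons, and none was called. With scaling to the total count alone, the difference between F0_ABS-SAL and F0_SAL became 0.11, so that no direction can be given for it either.

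The ratio of 2 miRNAs within a library does not depend on how libraries are scaled. For this reason miR-205, miR-203b-3p and miR-31a-5p were also set against miR-203a-3p, a comparison added after the group levels had been seen. Raw miR-205 counts amounted to 8.39% ± 2.93 of those of miR-203a-3p in F0_SAL (SD, n = 7) and to 34.2% ± 27.2 in F0_ABS-SAL (n = 5). The lowest abstinent library was at 16.7% and the highest nonabstinent one at 12.3%, so the groups did not overlap. The ratio was 3.58-fold higher in F0_ABS-SAL, with an exact two-sided permutation p of 0.00126, the smallest possible. In the morphine groups it was 13.2% ± 5.33 in F0_MOR (n = 7) and 29.6% ± 11.1 in F0_ABS-MOR (n = 6), a 2.26-fold difference with an exact permutation p of 0.0157. Library R was at 82.4% and library S at 10.1%. With TMM scaling, the mean of the denominator, miR-203a-3p, was itself lower in both abstinent groups, without a call. For miR-203b-3p the ratio to miR-203a-3p had group means between 5.05% and 5.58%, with exact permutation p-values from 0.488 to 0.934. In all, 12 such ratio tests were made, and the p-values above are not adjusted. After Benjamini-Hochberg adjustment over the 12, the exact permutation p of the miR-205 ratio was 0.0152 in the saline groups and 0.0944 in the morphine groups.

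**Figure D3:**
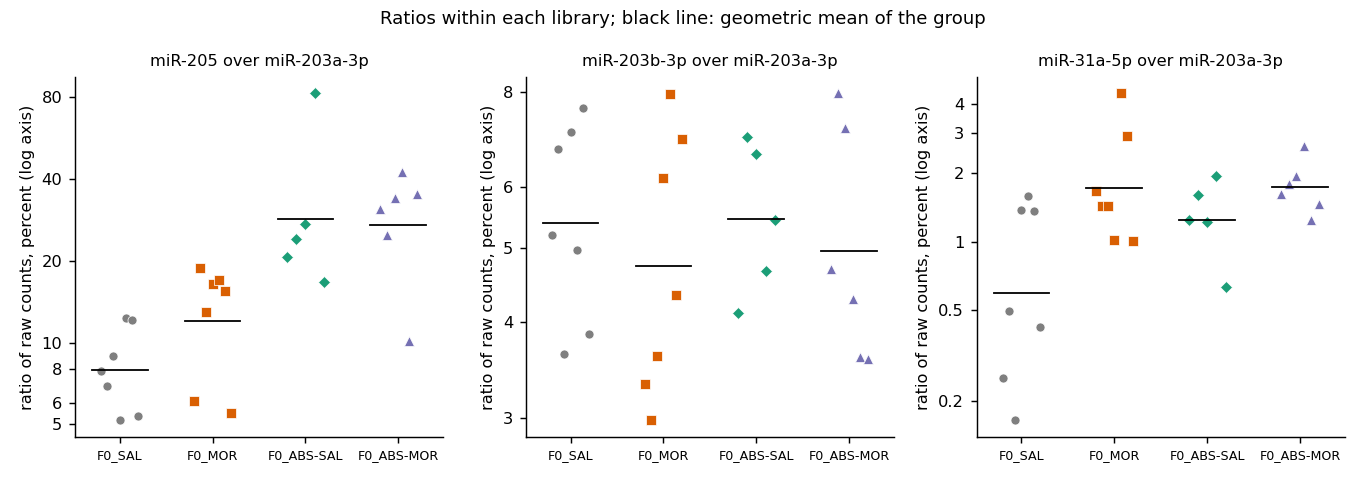
Raw counts of miR-205, miR-203b-3p and miR-31a-5p as a percent of those of miR-203a-3p in the same library, on log axes; each point is 1 library and the black line is the group's geometric mean. For miR-205 the F0_ABS-SAL libraries (16.7% to 82.4%) lie above the F0_SAL libraries (5.18% to 12.3%), whereas the ranges of the miR-203b-3p ratio overlap in all 4 groups.

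miR-31a-5p, the main arm of miR-31 in skin, was scarce, at 2 to 55 raw counts per library. Its normalized counts were 3.13, 3.32, 6.54, 8.15, 14.7, 17.7 and 21.4 in F0_SAL (mean 10.7 ± 7.24, SD, n = 7). In F0_MOR they were 11.7, 15.3, 17.98, 22.6, 23.4, 34.6 and 48.9 (mean 24.9 ± 12.8, n = 7). All 7 morphine libraries lay above the saline mean and 4 of 7 above every saline library, but the groups overlapped. The log2 fold change was 1.16 (SE 0.38), or 2.24-fold. It had rank 4 by p of the 317, with an unadjusted p of 0.00494 and an adjusted p of 0.391 (edgeR), beside 7.26% of miRNAs at an unadjusted p under 0.05. The exact permutation p was 0.0152, or 0.665 after adjustment over all 317, so this difference failed the correction in both tests. Relative to miR-203a-3p, its raw counts were 0.809% ± 0.606 in F0_SAL (SD, n = 7) and 1.99% ± 1.26 in F0_MOR (n = 7). The exact permutation p of this ratio was 0.0245, or 0.0979 after adjustment over the 12 ratio tests.

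In the abstinent groups, miR-31a-5p ranged from 7.05 to 20.3 in F0_ABS-SAL (mean 15.5 ± 5.37, SD, n = 5) and from 14.2 to 22.01 in F0_ABS-MOR (18.5 ± 3.19, n = 6), with a log2 fold change of 0.27 (SE 0.41, adjusted p 1.00, edgeR). The treatment effects at the 2 timepoints differed by 0.89 (SE 0.56), with an adjusted p of 0.953 (edgeR interaction). Abstinent and nonabstinent groups overlapped within each treatment, and log2 fold changes were 0.46 (SE 0.41, adjusted p 0.384) for saline and -0.43 (SE 0.38, adjusted p 0.467) for morphine. None of the neighbours in the order of means, from F0_SAL through F0_ABS-SAL and F0_ABS-MOR to F0_MOR, differed by the call rule. The low counts limit what could be detected for this arm.

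The other arm, miR-31a-3p, was at 0 in 1 library of each group. Its normalized counts reached 34.6 in F0_SAL (mean 13.1 ± 11.6, SD, n = 7), 21.3 in F0_MOR (8.68 ± 6.78, n = 7), 12.6 in F0_ABS-SAL (6.70 ± 4.65, n = 5) and 15.0 in F0_ABS-MOR (6.69 ± 4.89, n = 6). Log2 fold changes ranged from -1.003 (SE 0.69, F0_ABS-SAL against F0_SAL) to 0.03 (SE 0.72, F0_ABS-MOR against F0_ABS-SAL), and none was called.

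Arm use was read from both counts of each library. Summed over a group, the 5p arm held 75 of its counts against 89 of the 3p arm in F0_SAL (45.7% 5p), 148 against 53 in F0_MOR (73.6%), 103 against 46 in F0_ABS-SAL (69.1%) and 139 against 52 in F0_ABS-MOR (72.8%). The 5p count exceeded the 3p count in 3 of 7 F0_SAL libraries and in 7 of 7, 5 of 5 and 6 of 6 libraries of the other groups. Per library, the 5p share was 53.6% ± 23.5 in F0_SAL (SD, n = 7) and 76.1% ± 14.4 in F0_MOR (n = 7), with an exact two-sided permutation p of 0.0559. The other 3 comparisons gave exact permutation p-values of 0.222 to 0.888. After Benjamini-Hochberg adjustment over the 4 exact permutation tests, the smallest p, that of F0_MOR against F0_SAL, was 0.224. In 1 F0_SAL library the share of 100% rested on 2 counts.

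**Figure D4:**
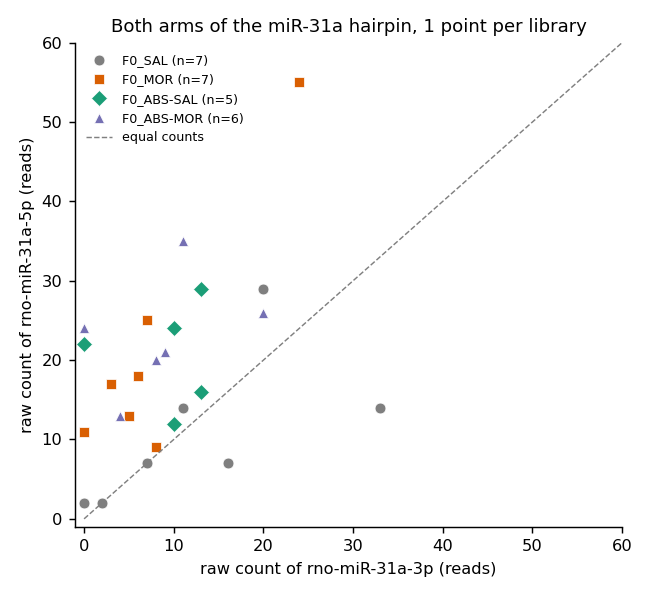
Raw counts of miR-31a-5p against miR-31a-3p, 1 point per library with the group as symbol; the dashed line marks equal counts. The 7 F0_MOR, 5 F0_ABS-SAL and 6 F0_ABS-MOR libraries lie above the line, as do 3 of the 7 F0_SAL libraries.

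No pair of members passed a test of varying together within groups. After the group means were removed, 40 correlations over the 25 libraries were computed, between members and with the library total and 5 lists of other cell types (simple epithelium, leukocyte, erythroid, endothelial and muscle), and the smallest adjusted p was 0.237 for Pearson's r and 0.220 for Spearman's rho (permutation tests). For miR-205 and miR-203a-3p, r was -0.17 and rho -0.12 (permutation p 0.385 and 0.562). Within the 14 nonabstinent libraries r was 0.11 and within the 11 abstinent libraries -0.59, and without the 2 libraries farthest from the median of miR-205 it was -0.22. For the arms of miR-31a, r was 0.48 and rho 0.57 (permutation p 0.0350 and 0.0103), with r of 0.72 in nonabstinent and -0.23 in abstinent libraries, and r was 0.36 without the 2 farthest libraries.

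As a description over all 25 libraries, likeness was taken as Pearson's r of log2 CPM after the group means were removed. The miRNAs most like miR-205 were miR-182 (r = 0.77), miR-200a-5p (r = 0.77) and miR-10a-5p (r = 0.76). For miR-203a-3p they were miR-30c-5p (0.79), miR-25-3p (0.76) and miR-375-3p (0.76), and for miR-203b-3p they were miR-532-5p (0.83), miR-142-3p (0.81) and miR-34b-5p (0.74). The profile of miR-31a-5p was closest to miR-29b-3p (0.66), miR-202-5p (0.62) and miR-145-5p (0.54), and that of miR-31a-3p to miR-29a-3p (0.74), miR-16-5p (0.72) and miR-883-3p (0.69). These values share the same libraries, and depth enters each of them, whereas differences between group means do not.

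Other epithelial miRNAs were counted by direction, beside 22.4% of all miRNAs tested called higher and 10.7% lower in F0_ABS-SAL against F0_SAL, and 11% higher and 10.1% lower in F0_ABS-MOR against F0_MOR. The miR-200 family, which maintains epithelial character by repressing ZEB1 and ZEB2, had 5 of its 7 tested members called higher and 0 lower in F0_ABS-SAL against F0_SAL, and 3 higher and 0 lower in F0_ABS-MOR against F0_MOR. Its median log2 fold changes were 0.66 and 0.53, beside 0.00 over all miRNAs tested in both comparisons. miR-200a-5p went from 181 ± 26.6 in F0_SAL (n = 7) to 532 ± 274 in F0_ABS-SAL (n = 5), a log2 fold change of 1.56 (SE 0.28). In the morphine groups it went from 194 ± 84.7 (n = 7) to 641 ± 182 (n = 6), a log2 fold change of 1.73 (SE 0.28). miR-141-3p and miR-200b-5p were called higher in both comparisons, with log2 fold changes of 0.62 and 0.74 for the former and 0.88 and 0.82 for the latter. miR-200a-3p was called in the saline groups alone (0.78, and 0.53 in the morphine groups), and the difference between these was not called (edgeR interaction 0.25, adjusted p 0.953).

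Of 10 other miRNAs described in keratinocytes, 6 were called higher and 1 lower in F0_ABS-SAL against F0_SAL, and 3 higher and 0 lower in F0_ABS-MOR against F0_MOR, with medians of 0.72 and 0.45, beside the same shares of all miRNAs as for the miR-200 family. The hypoxia-responsive miR-210-3p was called higher in both (log2 fold changes 1.03 and 0.67), as were miR-99a-5p (0.72 and 0.85) and miR-125b-5p (0.93 and 0.64). miR-27b-3p was called in the saline groups (0.71) and in the morphine groups (0.47, adjusted p 0.0272, edgeR) missed the fold change threshold alone, with a difference between these of 0.24 (edgeR interaction, adjusted p 0.953). All members named so far had positive log2 fold changes in both comparisons, and the 1 called lower in F0_ABS-SAL is not among them. The most abundant of the list, miR-21-5p, was called in 0 comparisons. It held between 45.6% and 57.9% of the list's summed CPM in a group. Many miRNAs of this list are also expressed outside epithelium.

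Of 6 miRNAs of simple epithelium and secretory cells, 2 were called higher and 1 lower in F0_ABS-SAL against F0_SAL, and 1 higher and 1 lower in F0_ABS-MOR against F0_MOR. Over both directions these are 3 and 2 of 6, beside the 33.1% and 21.1% called of all miRNAs tested. miR-96-5p was called higher in both (1.39 and 0.96), and miR-182 of the same cluster in the saline groups (0.63, and 0.30 in the morphine groups, with an edgeR interaction of 0.33 and an adjusted p of 0.953). The third member of that cluster, miR-183-5p, was not called (0.44 and 0.37). miR-375-3p, known from endocrine and secretory epithelium, was called lower in both (-0.77 and -0.83). It was also far more abundant than any stratified-epithelium miRNA, at 11406 ± 4221 normalized counts in F0_SAL (n = 7). None of these 3 lists had a member called in either treatment comparison, where 0% of miRNAs were called.

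Markers of other cell types differed in how many were called between timepoints, to be read beside 22.4% of all miRNAs tested called higher and 10.7% lower in F0_ABS-SAL against F0_SAL, and 11% higher and 10.1% lower in F0_ABS-MOR against F0_MOR. Both endothelial miRNAs, miR-126a-3p and miR-126a-5p, were called higher in each abstinent group, and their summed level was 442 to 743 CPM in F0_SAL, 559 to 740 in F0_MOR, 825 to 3421 in F0_ABS-SAL and 1074 to 1662 in F0_ABS-MOR. Of 4 muscle miRNAs tested, 3 were called higher in F0_ABS-SAL against F0_SAL and 1 in F0_ABS-MOR against F0_MOR, and the summed level of the 6 listed was 10659 to 16001 CPM in F0_SAL, 12599 to 16317 in F0_MOR, 19660 to 83763 in F0_ABS-SAL and 18074 to 45750 in F0_ABS-MOR. Between 99.2% and 99.4% of the muscle sum of a group was miR-143-3p, a miRNA of smooth muscle and other stromal cells. Of the 9 germ line miRNAs, 3 were called lower in F0_ABS-SAL against F0_SAL and 0 in F0_ABS-MOR against F0_MOR, with median log2 fold changes of -0.57 and -0.28. Leukocyte miRNAs had 1 of 6 called higher in the saline groups, and 1 higher and 1 lower in the morphine groups, with sums of 896 to 2157, 1549 to 2285, 2090 to 3144 and 2213 to 3578 CPM in the same group order. Of 3 erythroid miRNAs tested, 0 were called in the saline groups and 3 were called lower in the morphine groups, with sums of 706 to 2104, 957 to 2167, 794 to 1286 and 389 to 1557 CPM. No marker of the germ line, leukocyte, erythroid or endothelial lists was at 0 in every library of a group, and of the muscle list miR-133b-3p was at 0 in every library of F0_MOR and of F0_ABS-SAL. The part of these cell types in the miR-205 difference was not tested.

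In libraries at or near the extremes of miR-205, some of these lists were at their group's extreme and others were not. Library R, with the highest miR-205 of all 25, had the highest mean log2 CPM of its group for the miR-200 family (7.95), the keratinocyte list (9.93) and the muscle list (6.23, and 83763 CPM summed), and the lowest for the germ line list (11.57). For the endothelial and leukocyte lists it ranked 2 of 5, for simple epithelium 3 and for the erythroid list 4. Library S, with the lowest miR-205 of F0_ABS-MOR, had the lowest mean of its group for the miR-200 family (7.10) and the keratinocyte list (9.67) and the highest for the germ line list (12.16). It ranked 5 of 6 for muscle and simple epithelium, 4 for the endothelial and leukocyte lists and 3 for the erythroid list. Library U of F0_MOR, with the lowest miR-205 of all 25, ranked 7 of 7 in its group for the miR-200 family and the keratinocyte list. It ranked 6 for simple epithelium, 4 for muscle, 3 for the germ line and leukocyte lists, 2 for the erythroid list and 1 for the endothelial list. Library A, the next lowest of F0_MOR at 86.2, ranked 5 of 7 for the miR-200 family, the keratinocyte list and the germ line list, and 7 for simple epithelium. The other group extremes of miR-205 were mixed for the miR-200 family and the keratinocyte list, in that order. Library J, the highest of F0_ABS-MOR at 384, ranked 5 and 4 of 6. Library Y, the lowest of F0_ABS-SAL at 186, ranked 4 and 3 of 5. Library M, the highest of F0_MOR at 248, ranked 4 and 1 of 7. In F0_SAL, library H, the highest at 169, ranked 1 and 1, and library O, the lowest at 80.5, ranked 6 and 6. Without library R the log2 fold change of miR-205 between F0_ABS-SAL and F0_SAL was 1.17 (SE 0.29, adjusted p 0.0120, edgeR), and 65 of all miRNAs tested were called in place of 105. Without library S it was 0.97 between F0_ABS-MOR and F0_MOR (SE 0.31, adjusted p 0.0290, edgeR). After removal of group means, miR-205 correlated with the muscle list at r = 0.28 and rho = 0.09 (permutation p 0.252 and 0.700), and r was 0.10 without the 2 farthest libraries, of which R was 1. Within nonabstinent libraries this r was -0.38 and within abstinent libraries 0.70. With the endothelial list r was 0.04 and rho -0.05 (permutation p 0.881 and 0.812), with r of -0.44 in nonabstinent and 0.28 in abstinent libraries, and r was 0.05 without the 2 farthest libraries. Of the 5 lists correlated with miR-205, simple epithelium gave the r of largest size, at 0.42 with a rho of 0.41 (permutation p 0.0399 and 0.0510, adjusted 0.237 and 0.323). This r was 0.53 in nonabstinent and 0.28 in abstinent libraries, and 0.41 without the 2 farthest. The miR-200 family, keratinocyte and germ line lists were not among those correlated.

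**Figure D5:**
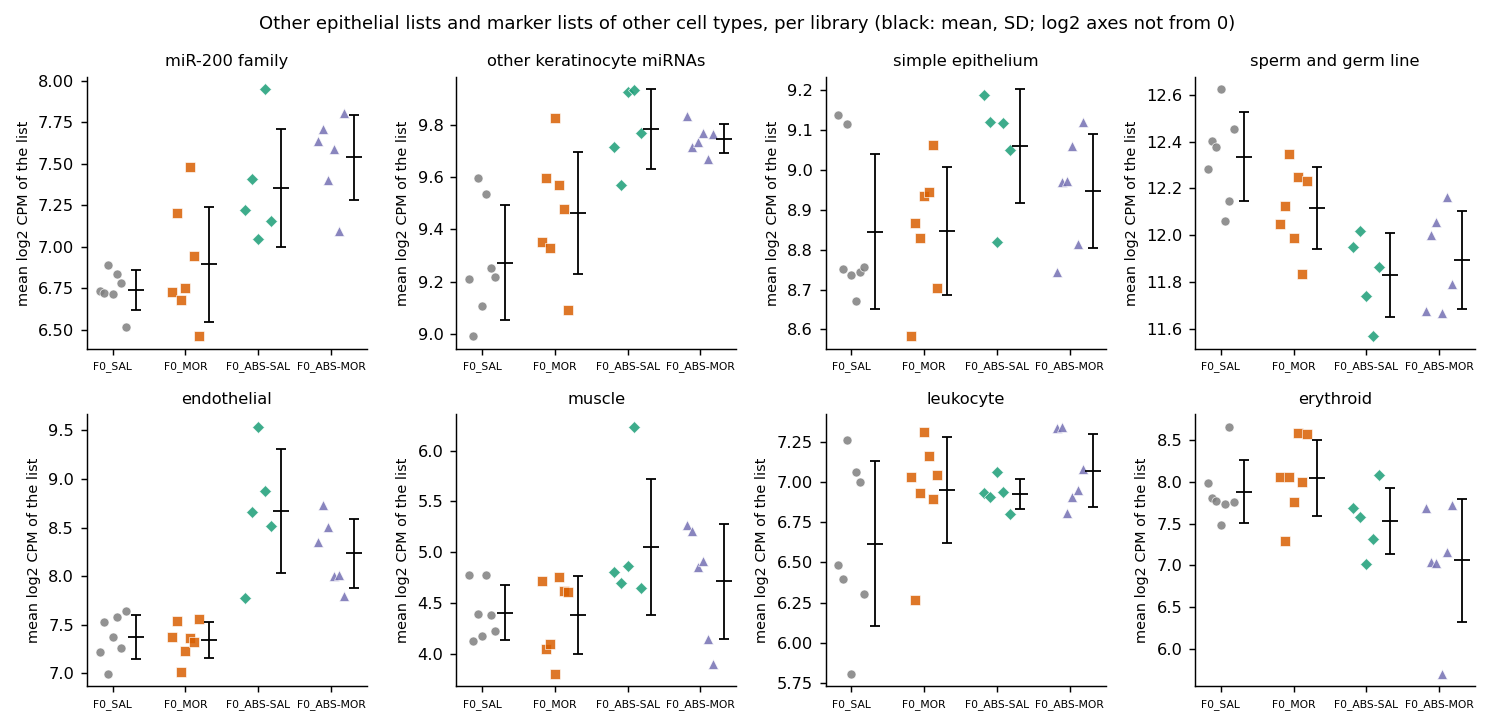
Mean log2 CPM of the listed miRNAs of each set, 1 point per library, with the group mean and SD in black; the log2 axes do not start at 0. The endothelial list averages 7.37 in F0_SAL and 8.67 in F0_ABS-SAL, the miR-200 family 6.74 and 7.36, and the germ line list 12.33 and 11.83.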

How the data were processed

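Sperm small RNA of 25 F0 males was sequenced by the authors (NEBNext small RNA libraries, Illumina HiSeq, forward reads). With sRNAbench they trimmed adaptors, filtered on quality, aligned reads to rn6 with bowtie and annotated them first to miRBase. The authors deposited raw counts of sense reads per mature miRNA, without normalization; no count equals 1 and the smallest above 0 is 2. The labels name DESeq2 in the processing notes, with no version given in the sources used here. The deposited table of other small RNAs was not used.

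Columns carry a letter, REG or TO, and SAL or MOR. REG and TO were matched to nonabstinent and abstinent males by group size (7 and 7 against 5 and 6), and letters tie to no replicate number. No 2 of the 300 pairs of libraries were alike within sampling noise (smallest chi-square per degree of freedom 27.2).

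Counts were analysed in edgeR 4.0.16 (R 4.3.3) with TMM scaling, its default filter on low counts, 1 model of 4 groups, and the quasi-likelihood test. The SE is the absolute log2 fold change divided by the square root of F. Exact permutation tests used log2 CPM with a prior count of 2 (SciPy 1.17.1), and correlations used 100000 permutations within groups. Alternatives used DESeq2 1.42.0, limma 3.58.1, other scalings, filters and thresholds, and each library left out. The scripts were tested on simulated data. Of 562 listed miRNAs, 520 matched the RefSeq sequence table.

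The members and the lists (miR-200 family, keratinocyte, simple epithelium, and markers of germ line, leukocyte, erythroid, endothelial and muscle cells) were chosen with earlier results of these data known. All members are named, together with the 3 miRNAs most alike to each. From each epithelial list at most 4 are named, those called in most comparisons, with ties broken by the smallest p. The list names miR-215 and miR-486 matched no row by that name.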

Additional observations from a re-analysis of the deposited data

Results flagged for a closer look

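A single library stood far from the rest of its group in 3 of 40 checks by Dixon's test (groups of 4 to 10 libraries), where chance alone gives about 2. In F0_ABS-MOR, library S had a log2 CPM of miR-205 of 6.28, with its nearest neighbour at 7.21. The same library had a log2 ratio of miR-205 to miR-203a-3p of -3.30, with the nearest at -2.002; both values rest on the same miR-205 count. In F0_SAL, library H had 100% of its miR-31a counts on the 5p arm, with the nearest library at 59.2%, and this share rests on 2 counts.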

How the results depend on the processing

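With all libraries kept, 257 log2 fold changes of the members under 11 other settings were set against the main fit, and 246 kept their direction and their call. Settings that changed only a threshold (adjusted p under 0.05, or no fold change threshold) kept the fold changes of the main fit. No direction could turn there, and without a fold change threshold no call could be lost. miR-205 between F0_ABS-SAL and F0_SAL was called under each of the 11 settings (log2 fold change 1.34 to 2.05) and with each of its 12 libraries left out (1.17 to 1.90). Between F0_ABS-MOR and F0_MOR, the count of called members fell from 1 to 0 at an adjusted p under 0.05, where 43 of all miRNAs were called in place of 67, and ranged from 0 to 1 with a library left out; over the other settings the adjusted p of miR-205 lay between 0.0217 and 0.0726. For miR-31a-5p between F0_MOR and F0_SAL, the adjusted p lay between 0.125 and 0.593 over the other settings and between 0.170 and 0.835 with a library left out.

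Directions turned for differences that were not called. With total count alone, log2 fold changes were 0.055 for miR-203a-3p (F0_MOR against F0_SAL), -0.0072 for miR-31a-3p (F0_ABS-MOR against F0_ABS-SAL), 0.065 for miR-203a-3p and 0.11 for miR-203b-3p (F0_ABS-SAL against F0_SAL), and 0.20 and 0.15 for their interactions. limma-voom with sample weights gave 0.11 for miR-205 (F0_ABS-MOR against F0_ABS-SAL) and 0.037 for the miR-203a-3p interaction, which was 0.022 with at least 10 counts in every library. With library size as a covariate the miR-203b-3p interaction was 0.047. The causes were not tested.

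With a library left out, values for F0_ABS-MOR against F0_ABS-SAL ranged from -0.54 to 0.14 for the miR-205 log2 fold change, from -0.42 to 0.13 for its mean log2 CPM, from -0.26 to 0.31 for its log2 ratio to miR-203a-3p, and from -0.37 to 0.35 for miR-31a-3p. The miR-31a-3p log2 fold change ranged from -0.77 to 0.055 for F0_ABS-MOR against F0_MOR, and the interactions from -0.12 to 0.025 for miR-203a-3p and from -0.24 to 0.033 for miR-203b-3p. The mean normalized count of miR-203a-3p in F0_ABS-SAL was 1308 with total count alone.

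No paired analysis was possible because the letters of the columns are tied to no replicate number. Low counts limit both arms of miR-31a, and group sizes of 5 to 7 limit all comparisons.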
